A study of Homo sapiens with 28 samples.

Results

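SKNO1 is an established acute myeloid leukaemia (AML) cell line that carries the t(8;21) translocation, which joins RUNX1 to RUNX1T1. The comparison described here set the 2 untreated SKNO1 arrays against the 12 untreated arrays of the other 6 lines, 14 of the 28 arrays of the series. The other lines were GDM1, MOLM13, SKM1, THP1, NOMO1 and SHI1, each in duplicate. "Untreated" means 0.1% DMSO, the solvent, for 96 hours. All 7 lines also had duplicate arrays after 1 µM GSK3484862, an inhibitor of the DNA methyltransferase DNMT1, for the same time, and those arrays are used below to repeat the comparison and to ask whether the SKNO1 difference changed with treatment. MOLM13, THP1, NOMO1 and SHI1 are known as lines with a KMT2A rearrangement, and GDM1 and SKM1 as lines without one, a division that comes from general knowledge and not from the sample labels.

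RUNX1 is a DNA-binding transcription factor of blood formation that works with its partner CBFB. The t(8;21) fusion keeps the DNA-binding domain of RUNX1 and replaces the rest with most of RUNX1T1 (ETO), a protein that recruits corepressors and histone deacetylases. AML with this fusion is known for immature myeloid cells with a partial granulocytic look, for KIT, POU4F1 and some B cell genes, and for low CEBPA. RUNX1T1, the gene that would check the label directly, is not analysed here, nor are RUNX1, CD34 and HOXA9. SKNO1 is the only line with the fusion, so what the fusion does and what is particular to this line cannot be told apart in these data.

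Expression was read as the log2 signal of 1 probe set per gene for 11676 genes, the probe set with the highest mean over the 28 arrays. Medians of the 14 untreated arrays lay between 8.36 and 8.5, the lowest value in the table was 2.13, and 623 and 658 of 27306 probe sets stood at that floor in the SKNO1 arrays (373 to 691 over the 14 arrays). Duplicates correlated with r between 0.991 and 0.998 across genes, and the typical spread of a single array around its line was 0.194 log2 units for SKNO1 and 0.161 to 0.289 over the lines. A difference below is SKNO1 minus the mean of the other 6 line means, in log2 units, with the standard error of a limma fit (2 arrays against 12). Its adjusted p was taken over all 11676 genes. "Higher" and "lower" are used only of genes with an adjusted p under 0.05. That error is the spread between duplicates of a line. The series' design text calls them biological duplicates, and the p-values speak of these 7 lines and not of t(8;21) leukaemia.

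By this fit 4224 genes (36.2%) were higher in SKNO1 and 4280 (36.7%) lower, together 72.8%, with a median difference of -0.01 over all genes. A narrower description asked for both SKNO1 arrays to lie outside the range of all 12 other arrays. It found 1457 genes above (12.5%) and 1274 below (10.9%), together 23.4%. The same count for each other line against the remaining lines gave 1580 (13.5%) in SKM1 to 3168 (27.1%) in GDM1, so SKNO1 was second to GDM1 among the 7 lines. All of the genes above the range were also called higher, and 4 of the genes below were not called. When each line was reduced to its mean and the spread between lines was the error, 29 genes were called higher (0.248%) and 36 lower (0.308%). The line that the range draws is thin at its edge. GFI1, at 12.55 and 12.56 in SKNO1 with 12.54 as the highest other array, lay just outside, while KIT, at 13.17 and 13.01 with 13.03 as the highest other array, lay just inside.

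Genes read low in the other 6 lines and well expressed in SKNO1 led the genes above the range. HORMAD1, a protein of the meiotic chromosome axis that is normally made in germ cells, read 12.37 and 12.41 in SKNO1 and 2.13 to 2.19 in the 12 other arrays, a difference of 10.21 ± 0.05 (adjusted p = 1.25e-14). LONRF2, a RING-finger ubiquitin ligase, read 11.13 and 11.02 against 2.13 to 4.45 (8.5 ± 0.1). DNAJC12, a co-chaperone of the aromatic amino acid hydroxylases, read 10.74 and 10.93 against 2.16 to 4.59 (8.13 ± 0.15). In all 3 the SKNO1 arrays stood more than 6 log2 units clear of the nearest other array, and SHI1 was the next highest line for LONRF2 and DNAJC12. Others of this group encode secreted, matrix or ciliary proteins. FSTL5, a secreted follistatin-like protein, read 8.83 and 8.66 against 2.13 to 2.53. AEBP1, an extracellular matrix protein, read 10.57 and 10.66 against 3.75 to 4.46. COL24A1, a fibrillar collagen, read 6.54 and 6.84 against 2.13 to 2.8. CC2D2A, a protein of the ciliary transition zone, read 7.68 and 7.83 with all 12 other arrays at 2.35. GGTA1, which in humans is a relic of the alpha-galactosyltransferase gene, read 8.67 and 8.65 against 2.13 to 2.6.

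FAM171A1, a membrane protein, read 12.42 and 12.44, with 2.13 to 6.94 elsewhere and NOMO1 highest. LNCEGFL7OS, a long noncoding RNA of the EGFL7 locus, read 10.97 and 10.84, and GDM1 reached 7.11 while the median of the 12 arrays was 2.13. LAX1, an adaptor of lymphocyte receptor signalling, read 9.96 and 10.06 against 3.82 to 5.47. The zinc-finger genes ZSCAN18 (9.54 and 9.78 against 2.67 to 4.97) and ZBTB42 (7.8 and 8.29 against 2.28 to 2.88) and the secreted-protein gene VWCE (8.79 and 8.65 against 3.17 to 3.7) were in the same group, as was the uncharacterised LOC101928047 (8.72 and 8.6 against 3.16 to 4.96). Over the 15 genes with the largest gap above, the differences ran from 4.39 to 10.21 with standard errors of 0.05 to 0.22. With lines as the units FAM171A1 (adjusted p = 0.127) and LNCEGFL7OS (adjusted p = 0.186), the pair with another line at 6.94 or 7.11, were no longer called. The calls that stayed are no added support, since the gap that chose these genes came from the same values. A value at the floor has no order, so a difference against it depends on where the floor lies. Arrays that repeat the same low value, as all 12 others do for CC2D2A, show no spread between duplicates. The standard errors and p-values of such genes, above or below the range, partly reflect that and not measured variation.

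The 15 genes with the largest gap below were the mirror image: expressed in all 6 other lines and near the floor in SKNO1, where their means lay between 2.13 and 2.95. FAR1, the peroxisomal fatty acyl-CoA reductase of ether lipid synthesis, read 2.13 and 2.39 in SKNO1 and 11.75 to 12.89 elsewhere (-10.06 ± 0.16, adjusted p = 1.85e-11). HNRNPLL, a splicing regulator best known for CD45 exons, read 2.13 and 2.21 against 11.26 to 12.67 (-9.79 ± 0.06). TPD52, a vesicle trafficking protein, read 2.73 in both arrays against 11.03 to 13.92 (-9.82 ± 0.07). These 3 genes were well expressed in every array of the other lines, with no overlap. Transcription and chromatin regulators formed part of the group. ETS1, a haematopoietic transcription factor, read 2.28 in both SKNO1 arrays against 9.5 to 12.42. PBX3, a HOX cofactor, read 2.8 in both arrays against 9.34 to 12.33, and SFMBT2, a Polycomb group protein, read 2.13 in both against 9.17 to 11.3.

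Cytoskeletal genes were another part of it: TPM1, a tropomyosin, read 2.4 and 2.79 against 8.94 to 11.16. GAS2L3, a linker of actin and microtubules, read 2.13 in both arrays against 8.67 to 9.64, and CORO2A, a coronin, 2.17 in both against 8.18 to 10.18. CX3CR1, the fractalkine receptor of monocytes, read 2.37 in both arrays against 8.45 in MOLM13 to 13.9 in GDM1. CPNE3, a calcium-dependent phospholipid-binding protein, read 2.19 and 2.13 against 9.37 to 11.19. PSMB9, an immunoproteasome subunit described below with its neighbours, read 3.16 and 2.73 against 10.1 to 11.98. OGFRL1, TMEM259 and RTL6 completed the 15, with SKNO1 means at the floor or within 1 log2 unit of it. The differences ran from -10.06 to -6.68. For 11 of the 15 the arrays hold more than 1 probe set. In all 11 every probe set had the same sign, and in 9 every probe set put both SKNO1 arrays below the other 12. CX3CR1 was no longer called with lines as units (adjusted p = 0.134).

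**Figure D1:**
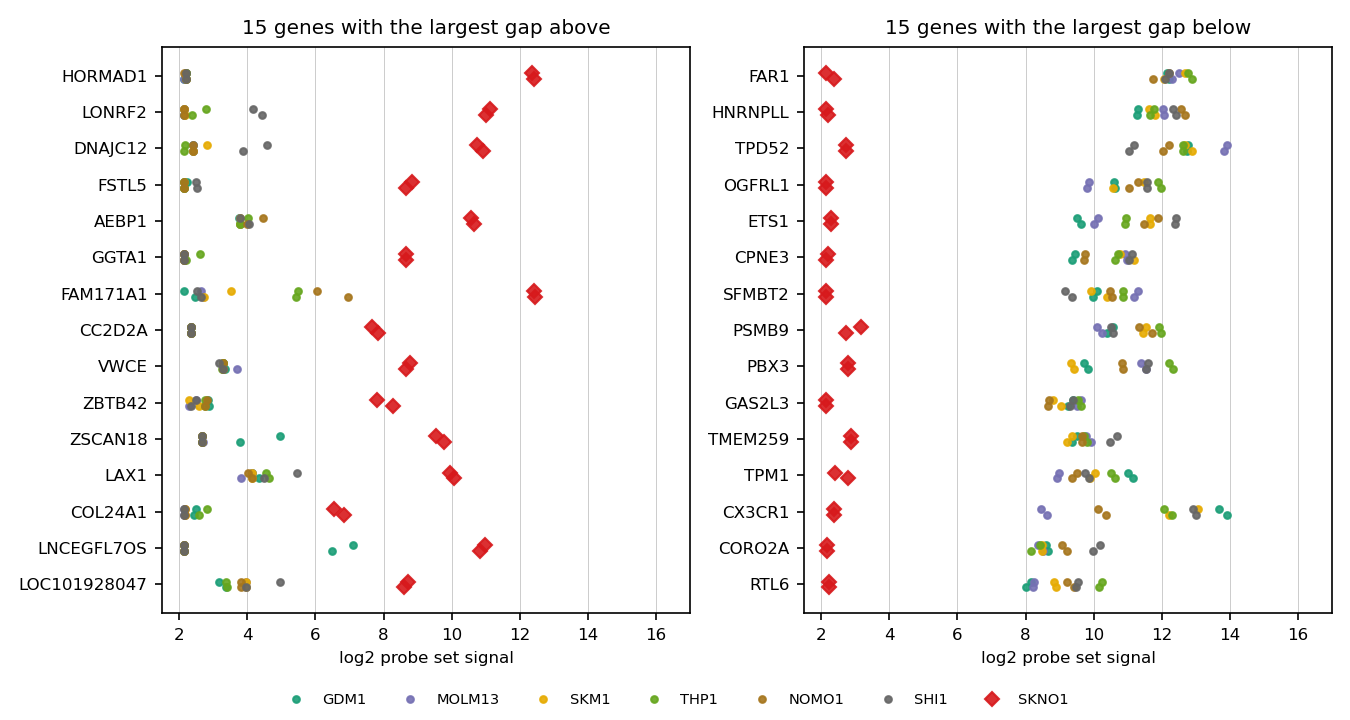
log2 probe set signal (x axis) of the 15 genes with the largest gap above and the 15 with the largest gap below the other lines, 1 row per gene. Red diamonds are the 2 untreated SKNO1 arrays and coloured circles the 12 untreated arrays of the other 6 lines; SKNO1 means lie between 6.69 and 12.43 in the left panel and between 2.13 and 2.95 in the right.

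Genes known to mark t(8;21) AML were mostly higher in SKNO1. Of 25 such genes 17 were measured, and 13 were higher (76.5%, against 36.2% of all genes) and 4 lower (23.5%, against 36.7%), with a median difference of 1.4 (all genes: -0.01). Only 3 lay above the range, however (17.6%, against 12.5% of all genes). ROBO1, an axon guidance receptor, read 11.78 and 11.89 in SKNO1 with THP1 reaching 11.69 (5.26 ± 0.21). ARHGEF12 read 11.5 and 11.86 against 6.15 to 10.69 (3.29 ± 0.12). PALM, paralemmin, was low in level and separate in every array, 4.99 and 5.19 against 2.13 to 3 (2.86 ± 0.17), and was the only member called with lines as units (adjusted p = 0.0134), on the same values.

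The best-known members were higher in SKNO1 than the average line and yet shared with 1 or more other lines. KIT, the stem cell factor receptor, read 13.17 and 13.01 against a median of 9.7, with GDM1 level with it (mean 12.99), a difference of 4.87 ± 0.2. POU4F1, a homeodomain transcription factor, read 6.68 and 6.97, above the median of 3.13 and far under SHI1, whose mean was 10.01 (2.2 ± 0.14). PAX5, the B lineage regulator, read 5.76 and 5.97 against 2.78 to 7.31 (1.4 ± 0.12). CCND2, a D-type cyclin, and PRAME, a tumour antigen, differed by 4.27 ± 0.2 and 3.98 ± 0.07, and for both another line reached the same level. The 4 lower members were CDKN1A (-2.36 ± 0.09, both SKNO1 arrays below the range), NCAM1 (-3.21 ± 0.18), CAV1 (-0.86 ± 0.15) and JAG1 (-0.82 ± 0.16). Against GDM1 and SKM1 alone, the lines without a KMT2A rearrangement, the median of the 17 was 0.84.

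Genes known as repressed by the fusion went the other way for the most part. Of 14 measured (18 in the list) 11 were lower (78.6%, against 36.7% of all genes) and 3 higher (21.4%, against 36.2%), with a median difference of -1.18, and -1.4 against GDM1 and SKM1 alone. OGG1, the DNA glycosylase for oxidised guanine, read 6.09 and 6 in SKNO1 against 8.92 to 9.74 (-3.23 ± 0.06). LAT2, an adaptor of myeloid and mast cell signalling, read 9.58 and 9.85 against 12.65 to 14.43 (-3.75 ± 0.08). Those were the 2 members below the range (14.3%, against 10.9% of all genes). CEBPA, the granulocytic master regulator, read 9.6 and 9.51 against a median of 12.89, a difference of -2.6 ± 0.06, and GDM1 was lower still (mean 8.79). CTSG and MS4A3, both made by granulocytic precursors, were lower by larger amounts (-4.81 ± 0.28 and -4.63 ± 0.26), with another line at or under SKNO1 in each. The 3 higher members were CDKN2A (3.28 ± 0.16), which encodes the p16 and ARF tumour suppressors, DUSP6 (1.69 ± 0.15) and CEBPE (1.39 ± 0.16).

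Among the RUNX proteins themselves and their partners, 8 of 21 measured were higher (38.1%) and 7 lower (33.3%), shares close to those of all genes (36.2% and 36.7%). RUNX3 lay above the range, at 12.08 and 12.41 against 9.73 to 11.48 (1.49 ± 0.08). RUNX2 read 11.88 and 12.09 against 6.97 to 11.96 (1.16 ± 0.16), and its sign turned when all its probe sets were averaged (-0.55). CBFB, the shared partner, did not pass the test (13.26 and 13.21 against 12.25 to 13.54, 0.07 ± 0.05, adjusted p = 0.27). The 2 measured relatives of RUNX1T1 stood on opposite sides of the range: CBFA2T2 above (9.08 and 9.58 against 7.82 to 9.01, 0.94 ± 0.15) and CBFA2T3 below (8.39 and 8.2 against 8.85 to 11.63, -1.3 ± 0.08). CBFA2T2 cleared the range by only 0.07 and was inside it in the treated arrays. Of its 4 probe sets 3 had the same sign and 2 lay above the range. E proteins, which bind the fusion, also divided: TCF12 lay above (1.36 ± 0.07), TCF3 below (-0.55 ± 0.06), and TCF4 was lower inside the range (-4.31 ± 0.2). HDAC1, a histone deacetylase, lay below by a small amount (-0.47 ± 0.04). ERG, an ETS factor of stem cells, read 9.66 and 9.89 where the median of the other arrays was the floor (6.16 ± 0.1), and GDM1 was higher (mean 11.04).

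Of 20 measured myeloid transcription factors 8 were higher (40%, against 36.2% of all genes) and 9 lower (45.0%, against 36.7%). IRF8, which drives monocyte fate, read 2.49 and 2.46 in SKNO1 and 2.97 to 13.63 elsewhere, lowest in GDM1 (-6.78 ± 0.32). IKZF2 (Helios) read 9.62 and 9.65 against 2.13 to 7.12 (5.75 ± 0.29). GFI1, a repressor needed for granulocytes, differed by 1.7 ± 0.11, with the thin margin given above. GATA2 (1.78 ± 0.06), EGR1 (2.13 ± 0.28) and JUN (1.41 ± 0.18) were higher, and FOS (-3.91 ± 0.2) and KLF4 (-2.71 ± 0.19) lower, all inside the range. SPI1 (PU.1) did not pass the test (-0.17 ± 0.08, adjusted p = 0.0802), nor did IKZF1 (-0.03 ± 0.07).

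HOX genes and their cofactors, known for high levels in KMT2A-rearranged leukaemia, were mostly lower in SKNO1. Of 10 measured HOX, MEIS and PBX genes (24 in the list) 8 were lower (80.0%, against 36.7% of all genes) and 1 higher (10.0%, against 36.2%). Their median was -1.57, and -1.99 against GDM1 and SKM1 alone. Those 2 lines were not alike for every member: the MEIS1 mean was 10.71 in GDM1 and 2.76 in SKM1. PBX3 is described above. MEIS1, the HOX cofactor, read 2.76 and 2.13 against a median of 10.42 (-5.43 ± 0.13), with SKM1 and THP1 equally low (means 2.76 and 2.13). The HOXB genes measured read 2.2 to 6.93 in SKNO1, at or near the lowest array of the other lines for HOXB2, HOXB3, HOXB4, HOXB6 and HOXB7. MEIS2 ran opposite, at 11.55 and 11.41 against 2.13 to 11.19 (4.31 ± 0.16). Stem and progenitor genes gave 12 higher (57.1%, against 36.2% of all genes) and 6 lower (28.6%, against 36.7%) of 21, with a median of 0.57. That median was -1.08 against GDM1 and SKM1 alone, so its sign depended on the lines compared. CPXM1, a carboxypeptidase-like protein, lay above the range (6.29 and 6.04 against 2.39 to 3.43), as did CD99 by a small margin (13.35 and 13.33, a difference of 0.65 ± 0.06), and DNMT3B lay below (6.76 and 6.66 against 7.26 to 13.12, -2.47 ± 0.08).

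Markers of maturing myeloid cells were lower in SKNO1 for the most part. Of 26 measured monocyte and macrophage markers 19 were lower (73.1%, against 36.7% of all genes) and 3 higher (11.5%, against 36.2%). Their median was -1.71, and -0.84 against GDM1 and SKM1 alone. Below the range lay 5 (19.2%, against 10.9% of all genes), of which 1 was also below it in the treated arrays. In RNA from whole cultures, fewer cells of a type and less RNA per cell cannot be told apart. CCR2 and CD36 were at or near the floor in SKNO1 (2.13 and 2.72, the same in both arrays) and reached 12.87 and 13.17 elsewhere, but their lowest other arrays, 2.27 and 2.8, were almost as low. LILRB1 and LILRB2, inhibitory receptors, lay below by smaller amounts (-2.38 ± 0.3 and -0.79 ± 0.11). CLEC12A (CLL-1), an inhibitory lectin of myeloid cells, was the strong exception: it read 11.9 and 12.23 in SKNO1 against 2.23 to 8.81 (6.85 ± 0.16, adjusted p = 2.35e-10). MRC1 also lay above, with duplicates that differed widely (2.38 and 3.83 against 2.13 to 2.3).

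Neutrophil granule genes were mixed, with more lower than higher. MPO, the myeloperoxidase of primary granules, read 15.2 and 15.26 against a median of 12.66 (3.43 ± 0.14), and ELANE was also higher (0.84 ± 0.1). MPO was inside the range, and SKM1 and SHI1 read slightly more (means 15.48 and 15.46). The primary granule genes PRTN3 (-2.05 ± 0.11) and AZU1 (-0.9 ± 0.08) were lower. Among genes made later in maturation, S100A9 read 2.26 and 2.23 against a median of 12.93 (-8.19 ± 0.1), S100A12 differed by -4.52 ± 0.41, and MMP9 lay below the range (4.08 and 4.24 against 4.66 to 10.5). S100A9 was inside the range, with GDM1 as low as SKNO1 (mean 2.23) and MOLM13 at a mean of 3.91. In all, 6 of 23 were higher (26.1%, against 36.2% of all genes) and 15 lower (65.2%, against 36.7%), with a median of -0.92. Against GDM1 and SKM1 alone the median was 0.62, so the direction of this list depended on the lines compared.

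A few B cell genes were high in SKNO1. IGLL1, the surrogate light chain of early B cells, read 13.91 and 13.93 against a median of 2.72, with GDM1 the next highest line at a mean of 11.47 (8.69 ± 0.08). CD79B, a signalling chain of the B cell receptor, read 10.27 and 10.22 against 4.58 to 8.72 (4.6 ± 0.13). CD24 was higher inside the range (4.38 ± 0.29). The partner CD79A did not pass the test (4.74 and 4.71 against 3.86 to 7.57, adjusted p = 0.0551), and EBF1, the factor that starts the B lineage, was at the floor in both SKNO1 arrays. Of the 8 markers measured (24 in the list) 4 were higher (50%, against 36.2% of all genes) and 2 lower (25.0%, against 36.7%). Their summed linear signal was 20207 and 21177 in SKNO1 against 586 to 8840, and most of it was IGLL1. The other 7 markers summed to 4805 and 5515, inside the range of the other lines (116 to 8835). Of 7 measured T and NK cell markers, CD4 lay above the range (11.37 and 11.28 against 4.32 to 10.39), NKG7, a granule protein of cytotoxic cells, lay below it (4.33 and 5.1 against 9.57 to 12.4), and 5 were lower in all (71.4%, against 36.7% of all genes).

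Receptors for blood growth factors differed one by one rather than as a group: 10 of 22 were higher (45.5%, against 36.2% of all genes) and 11 lower (50%, against 36.7%), while 3 lay above the range (13.6%, against 12.5%) and 4 below (18.2%, against 10.9%). The chains of the GM-CSF receptor parted. The shared beta chain CSF2RB read 11.61 and 11.69 against 8.46 to 11.12 (1.59 ± 0.11), and the alpha chain CSF2RA read 7.97 and 8.23 against 8.66 to 10.63 (-1.49 ± 0.08). TGFBR2, the TGF-beta type II receptor, read 12.51 and 12.57 against 9.2 to 10.75 (2.46 ± 0.1), and TNFRSF1A lay above by 1.07 ± 0.07. IL6R, the interleukin-6 receptor, read 7.38 and 7.47 against 10.67 to 13.5 (-4.91 ± 0.09), with IL13RA1 (-2.34 ± 0.17) and IL7R (-1.97 ± 0.27) also below. Of the 4 IL13RA1 probe sets only 1 lay below the range, and IL7R, near the floor, cleared it by only 0.07. FLT3 was higher by 1 ± 0.17, and CSF1R, the macrophage receptor, was lower (-2.98 ± 0.14) at 5.6, which was also the lowest value of the other lines.

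**Figure D2:**
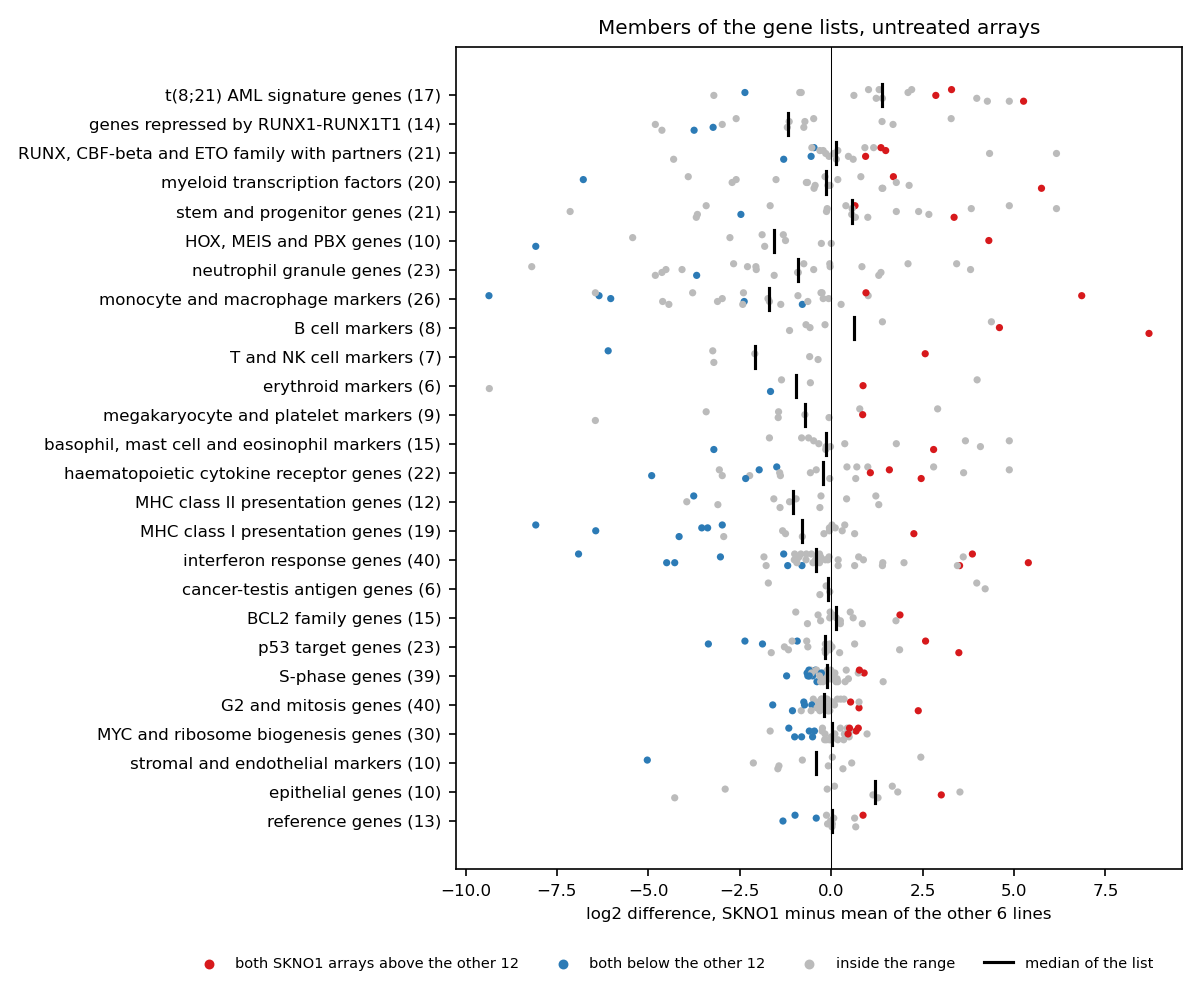
log2 difference (x axis) of each measured member of the gene lists, SKNO1 minus the mean of the other 6 lines, 1 row per list with the number measured. Red points have both SKNO1 arrays above the other 12, blue points both below, grey points lie inside the range, and black bars are list medians; the t(8;21) signature median is 1.4 and the monocyte median -1.71.

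Genes of antigen presentation by MHC class I were lower in SKNO1 at several steps. This pathway cuts proteins in the proteasome, carries the peptides into the endoplasmic reticulum by the TAP transporter and loads them on HLA molecules. Of 19 genes measured 11 were lower (57.9%, against 36.7% of all genes) and 4 higher (21.1%, against 36.2%), with a median of -0.79, and 6 lay below the range (31.6%, against 10.9% of all genes). The immunoproteasome subunit PSMB9 differed by -8.08 ± 0.12 (adjusted p = 1.02e-11). PSMB8 read 8.6 and 8.21 against 11.85 to 13.19 (-4.16 ± 0.1). Both chains of the transporter lay below: TAP2 read 2.93 and 3.1 against 8.84 to 10.56 (-6.44 ± 0.08), and TAP1 read 6.77 and 5.98 against 8.76 to 10.55 (-3.54 ± 0.16). The heavy chains HLA-B (11.41 and 11.44 against 11.95 to 15.4, -2.98 ± 0.07) and HLA-C (11.13 and 10.87 against 12.6 to 15.33, -3.38 ± 0.08) lay below too, with GDM1 the next lowest line for HLA-B. HLA class I genes are near-identical and their probe sets can share signal, so the values of single heavy chains are uncertain.

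Other members did not follow. B2M, the light chain, read 15.6 and 15.56 against 15.19 to 15.87 and did not pass the test (0.02 ± 0.05). PSMB10, the third immunoproteasome subunit, also did not pass (12.06 and 12.04 against 10.74 to 13.23, -0.05 ± 0.08). ERAP2, a peptide-trimming enzyme, lay above the range (11.2 and 11.3 against 6.19 to 10.87, 2.26 ± 0.22). NLRC5, the transactivator of class I genes, differed by -2.94 ± 0.18, at 5.57 and 5.21, while GDM1 was lower still. With lines as units TAP1 (adjusted p = 0.101), HLA-C (0.265) and HLA-B (0.521) were no longer called. All 6 genes below the range were below it in the treated arrays as well.

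TAP2, PSMB8, TAP1 and PSMB9 are neighbours on chromosome 6, and PSMB8-AS1, an antisense transcript that lies among them, was below the range with them (5.85 and 5.02 against 8.85 to 11.8), so 5 consecutive measured genes were below. The genes measured on either side were HLA-DOB, at the floor in SKNO1 and in most other arrays, and HLA-DMB, lower but inside the range (-1.57 ± 0.11). The promoters of the 4 protein-coding genes are shown because their genes were low together. They run from 250 bases before to 50 after the RefSeq transcript start (GRCh38.p14), 5′ to 3′ on the gene's strand, and capitals mark matches on either strand to a motif of interferon regulatory factors (IRF): GAAA, any 2 bases, GAAA. TAP1 and PSMB9 are divergent, and their windows overlap. TAP2 lies at chr6:32838690-32838989 and PSMB8 at chr6:32844630-32844929, both on the minus strand, TAP1 at chr6:32853655-32853954 on the minus strand, and PSMB9 at chr6:32853942-32854241 on the plus strand.
TAP2: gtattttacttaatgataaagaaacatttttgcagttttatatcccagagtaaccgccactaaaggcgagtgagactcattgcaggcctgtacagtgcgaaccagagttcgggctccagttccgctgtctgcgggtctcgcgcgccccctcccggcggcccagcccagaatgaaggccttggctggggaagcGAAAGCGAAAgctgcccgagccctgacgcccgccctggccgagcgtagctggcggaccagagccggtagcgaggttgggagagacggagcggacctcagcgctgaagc
PSMB8: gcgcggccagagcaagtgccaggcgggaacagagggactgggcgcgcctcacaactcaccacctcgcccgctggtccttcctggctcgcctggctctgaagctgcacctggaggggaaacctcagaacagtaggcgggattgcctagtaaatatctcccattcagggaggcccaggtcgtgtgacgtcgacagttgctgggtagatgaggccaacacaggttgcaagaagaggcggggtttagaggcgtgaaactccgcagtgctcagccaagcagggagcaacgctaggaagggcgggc
TAP1: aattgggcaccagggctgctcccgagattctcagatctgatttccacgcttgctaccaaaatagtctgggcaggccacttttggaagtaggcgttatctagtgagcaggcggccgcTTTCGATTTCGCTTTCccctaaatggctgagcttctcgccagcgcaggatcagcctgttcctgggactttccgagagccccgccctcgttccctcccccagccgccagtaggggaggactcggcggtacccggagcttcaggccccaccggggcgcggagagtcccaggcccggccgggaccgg
PSMB9: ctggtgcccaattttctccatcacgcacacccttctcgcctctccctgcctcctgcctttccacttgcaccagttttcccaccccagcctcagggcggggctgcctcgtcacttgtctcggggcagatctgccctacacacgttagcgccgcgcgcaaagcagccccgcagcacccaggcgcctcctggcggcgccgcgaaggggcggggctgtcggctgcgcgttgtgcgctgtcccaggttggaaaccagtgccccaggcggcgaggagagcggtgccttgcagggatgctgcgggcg
TAP1 held 2 overlapping matches and TAP2 held 1, and those letters were not in the PSMB8 and PSMB9 windows. The TAP1 matches lie between the starts of TAP1 and PSMB9, outside the PSMB9 window. The cut at 250 bases therefore decides their absence from that window.

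**Figure D3:**
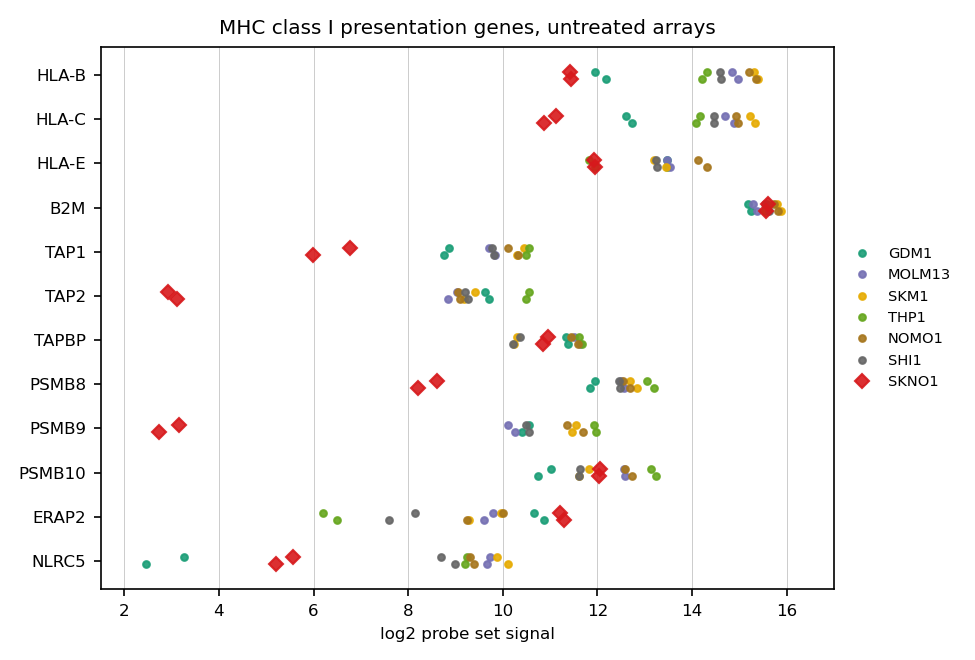
log2 probe set signal (x axis) of 12 MHC class I presentation genes in the 14 untreated arrays, 1 row per gene, with SKNO1 as red diamonds and the other 6 lines as coloured circles. SKNO1 stands below all other arrays for HLA-B, HLA-C, TAP1, TAP2, PSMB8 and PSMB9, above them for ERAP2, and among them for HLA-E, B2M, TAPBP, PSMB10 and NLRC5.

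MHC class II genes gave 9 of 12 lower (75.0%, against 36.7% of all genes) and 3 higher (25.0%, against 36.2%). HLA-DMA, which helps load peptides, lay below the range (2.92 and 3 against 3.3 to 11.71), HLA-DPA1 was lower inside it (-3.95 ± 0.34), and HLA-DRA (1.22 ± 0.31) and the invariant chain CD74 (1.3 ± 0.16) were higher.

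Genes induced by interferon did not move as one. Of 40 measured 20 were lower (50%, against 36.7% of all genes) and 11 higher (27.5%, against 36.2%), with a median of -0.41. Below the range lay 7 (17.5%, against 10.9%) and above it 3 (7.5%, against 12.5%). BST2 (tetherin), which holds budding virus at the cell surface, read 4.74 and 3.4 against 8.93 to 12.33 (-6.91 ± 0.26). ISG15, a ubiquitin-like modifier, read 8.13 and 7.71 against 10.07 to 12.17 (-3.03 ± 0.13). Its protease USP18 (2.22 and 2.81 against 4.14 to 8.71) and the GTPase MX2 (2.16 and 2.13 against 3.87 to 8.85) lay below as well, and so, by smaller amounts, did IRF7, SP100 and SP110. Above the range were RSAD2 (viperin), an antiviral enzyme, at 10.6 and 10.69 against 3.72 to 7.31 (5.39 ± 0.24), CMPK2, a nucleotide kinase, at 13.45 and 13.56 against 7.95 to 11.45 (3.51 ± 0.18), and IFITM1, at 12.98 and 12.94 against 3.4 to 12.12 (3.86 ± 0.14).

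CMPK2 and RSAD2 adjoin each other on chromosome 2, and the next measured genes on the same side, GRASLND (6.76 and 6.95 against 2.13 to 4.49) and RNF144A (12.51 and 12.5 against 4.35 to 9.15), lay above the range too. These neighbours were picked after their values were seen. RNF144A encodes a ubiquitin ligase and GRASLND is a long noncoding RNA. The next genes measured on either side of the 4, RPS7 and ID2-AS1, did not pass the test (0.08 ± 0.06 and -0.24 ± 0.17). The promoters of BST2 and RSAD2, interferon-induced genes at opposite ends, are shown with the same window and marks, BST2 at chr19:17405581-17405880 on the minus strand and RSAD2 at chr2:6865635-6865934 on the plus strand.
BST2: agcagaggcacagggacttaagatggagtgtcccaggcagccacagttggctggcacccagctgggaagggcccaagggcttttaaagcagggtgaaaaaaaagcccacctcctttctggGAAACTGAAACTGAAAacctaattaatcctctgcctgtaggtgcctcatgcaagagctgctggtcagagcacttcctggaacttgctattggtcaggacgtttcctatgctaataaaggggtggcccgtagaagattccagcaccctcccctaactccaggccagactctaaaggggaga
RSAD2: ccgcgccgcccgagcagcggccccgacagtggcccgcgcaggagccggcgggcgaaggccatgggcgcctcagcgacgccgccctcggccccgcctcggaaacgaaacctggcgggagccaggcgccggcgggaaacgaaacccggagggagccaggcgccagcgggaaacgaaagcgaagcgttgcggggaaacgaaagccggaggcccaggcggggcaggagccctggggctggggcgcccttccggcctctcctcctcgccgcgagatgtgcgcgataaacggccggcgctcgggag
BST2 held 2 overlapping matches to the IRF motif, and RSAD2 held no exact match in this window. A single RefSeq start per gene was used, so other possible starts of RSAD2 were not searched, nor were inexact matches. The absence of an IRF site from the RSAD2 promoter cannot be read from this window.

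RUNX proteins bind the hexamers TGTGGT and TGCGGT, so the promoters of all genes with an entry in the RefSeq table were searched for these letters on both strands. A match stood in 197 of 1212 promoters of genes above the range (16.3%), in 201 of 1039 below (19.3%), and in 1759 of 9563 over all measured genes (18.4%). Over all 27305 promoters of the table the share was 19.4%. The IRF motif stood in 2.15% above, 3.37% below, 2.92% over all measured genes and 3.65% over the table. None of these shares was tested, and a match is a description and not a site. The promoters of OGG1, from the list of repressed genes, and of IGLL1, the B cell gene with the largest difference, both with a RUNX match in capitals, are given as examples. OGG1 lies at chr3:9749702-9750001 on the plus strand and IGLL1 at chr22:23580241-23580540 on the minus strand.
OGG1: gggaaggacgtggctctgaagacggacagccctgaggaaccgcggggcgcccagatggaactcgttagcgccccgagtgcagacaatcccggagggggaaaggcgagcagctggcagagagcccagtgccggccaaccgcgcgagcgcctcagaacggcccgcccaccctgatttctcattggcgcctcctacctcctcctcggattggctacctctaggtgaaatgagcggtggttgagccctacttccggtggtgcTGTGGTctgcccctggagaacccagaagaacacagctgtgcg
IGLL1: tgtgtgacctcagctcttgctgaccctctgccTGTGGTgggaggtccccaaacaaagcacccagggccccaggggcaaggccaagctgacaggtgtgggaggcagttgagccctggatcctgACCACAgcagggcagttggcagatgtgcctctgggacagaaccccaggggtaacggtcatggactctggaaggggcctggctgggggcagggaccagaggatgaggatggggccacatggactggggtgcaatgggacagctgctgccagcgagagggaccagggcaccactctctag
OGG1 held 1 match, after the transcript start, and IGLL1 held 2 before it.

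Cell cycle genes differed by small amounts. Of 39 S-phase genes 19 were lower (48.7%, against 36.7% of all genes) and 7 higher (17.9%, against 36.2%), with a median of -0.12. Below the range lay 9 (23.1%, against 10.9%), of which 1 was below it in the treated arrays. RRM1, the large subunit of ribonucleotide reductase, read 12.62 and 12.48 against 13.41 to 14 (-1.22 ± 0.06), and MCM3, a replicative helicase subunit, 12.72 and 12.66 against 13.14 to 13.68. CDT1, a replication licensing factor, and E2F1 lay above (0.9 ± 0.07 and 0.77 ± 0.12). Of 40 G2 and mitosis genes 20 were lower (50%, against 36.7% of all genes) and 6 higher (15.0%, against 36.2%), with a median of -0.19. PLK1, a mitotic kinase, lay below (-1.6 ± 0.11) and BIRC5 (survivin) above (0.76 ± 0.08). UBE2C, the ubiquitin-conjugating enzyme of the anaphase-promoting complex, read 13.33 and 13.31 against 4.33 to 13.15. None of the 5 mitosis genes below the range (12.5%, against 10.9% of all genes) was below it in the treated arrays. MYC itself read 14.04 and 14.02 against 12.12 to 13.9 (0.74 ± 0.08). Of 30 MYC and ribosome biogenesis genes 12 were higher (40%) and 9 lower (30%), near the shares of all genes, with LDHA (-0.81 ± 0.06), WDR12 (-1.16 ± 0.08) and RRS1 (-1 ± 0.06) below the range.

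Of 23 p53 target genes 10 were lower (43.5%, near the 36.7% of all genes) and 4 higher (17.4%, against 36.2%). CDKN1A (p21) and TNFRSF10B, a TRAIL receptor (7.89 and 7.69 against 8.64 to 13.28, -3.36 ± 0.07), lay below with SESN1 and AEN. TP53INP1 (9.83 and 10.1 against 3.13 to 8.42) and ZMAT3 (12.02 and 11.99 against 7.85 to 11.96) lay above, and neither was above the range in the treated arrays. MDM2 (-0.16 ± 0.17), BAX (-0.03 ± 0.14) and PMAIP1 (-0.04 ± 0.08) did not pass the test. Of 15 BCL2 family genes 6 were higher (40%, against 36.2% of all genes) and 4 lower (26.7%, against 36.7%). BCL2L1 (BCL-XL) lay above the range (9.17 and 9.15 against 6.31 to 9.04, 1.88 ± 0.09), while BCL2 (-0.97 ± 0.08) and MCL1 (-0.29 ± 0.06) were lower inside it.

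Markers of other blood and tissue cells gave counts from 6 to 15 genes a list, to be read against 36.2% higher and 36.7% lower over all genes. Erythroid markers had 2 of 6 higher (33.3%) and 4 lower (66.7%), with TFRC, the transferrin receptor, above the range (0.87 ± 0.07) and BLVRB below (-1.66 ± 0.12). Megakaryocyte and platelet markers had 3 of 9 higher (33.3%) and 5 lower (55.6%), with PLEK above (0.86 ± 0.09) and CD9, a tetraspanin, lower inside the range (-6.45 ± 0.34). Basophil, mast cell and eosinophil markers had 5 of 15 higher (33.3%) and 4 lower (26.7%). Among these FCER1A, the IgE receptor chain, lay above (4.78 and 5.75 against 2.37 to 3.09, 2.8 ± 0.18) and MITF below (-3.21 ± 0.13). MITF cleared the range by only 0.04, at 3.16 against 3.21 in GDM1, and was inside it in the treated arrays. Of its 2 probe sets 1 lay below the range. Stromal and endothelial markers had 3 of 10 higher (30%) and 5 lower (50%), with PECAM1, an adhesion molecule that leukocytes also carry, below (6.72 and 6.67 against 10.52 to 13.42, -5.03 ± 0.11). SPARC, a matrix protein, was higher than the average line (2.45 ± 0.18), with the opposite sign against GDM1 and SKM1 alone (-2.66) and with another choice of probe set (-1.82). Epithelial genes had 6 of 10 higher (60.0%) and 2 lower (20.0%), with PKP2 above (3.01 ± 0.26) and ST14 lower (-4.28 ± 0.51). Cancer-testis antigen genes had 2 of 6 higher and 2 lower (33.3% each), all inside the range, with PRAME and MAGEB2 (4.21 ± 0.07) the higher pair; HORMAD1 was not on that list. The summed linear signals of T and NK cell, erythroid, megakaryocyte, stromal and epithelial markers lay inside the range of the other lines; epithelial genes, for example, summed to 4569 and 4928 against 1353 to 13371.

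Reference genes did not stay inside the range in all cases. Of 13 measured 3 were higher and 3 lower (23.1% each, against 36.2% and 36.7% of all genes), with a median of 0.01. Below the range lay 3 (23.1%, against 10.9% of all genes) and above it 1 (7.69%, against 12.5%). TBP (8.44 and 8.5 against 9.57 to 10.13), YWHAZ (13.43 and 13.54 against 14.19 to 14.87) and POLR2A (8.24 and 8.18 against 8.25 to 9.15) lay below and TFRC above.

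Genes outside the range were unevenly placed along the genome. The share below was 31.2% of 522 measured genes on chromosome 16 and 21.9% of 430 on chromosome 8, against 10.9% over all genes, and the share above was 23.5% of 664 on chromosome 3. Chromosome 8 had 2.56% above. On chromosome 16 the first 261 genes in order held 143 of the 163 below (54.8% of those 261, median difference -0.91), and the remaining 261 held 20 (7.66%). Chromosome 17 turned over along its length: of its first 334 genes 26% were below and 2.1% above, and of the remaining 335 genes 7.16% were below and 30.4% above. The shares in the treated arrays were 29.9% below on chromosome 16, 20.2% below on chromosome 8 and 22.7% above on chromosome 3. Only RNA was measured, and why genes of a region differ together was not tested.

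**Figure D4:**
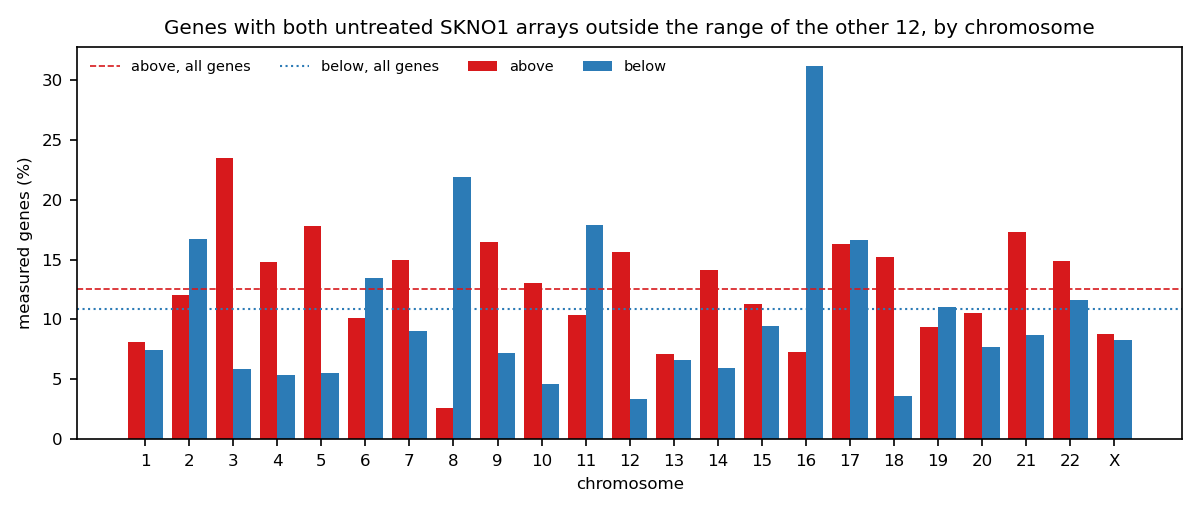
Percent of measured genes per chromosome (y axis) with both untreated SKNO1 arrays above (red bars) or below (blue bars) the 12 other untreated arrays. The dashed and dotted lines give the shares over all genes, 12.5% and 10.9%; chromosome 16 reaches 31.2% below and chromosome 3 reaches 23.5% above.

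Windows of 25 neighbouring measured genes, a size chosen with the data in view, were scanned, and the fullest window of each chromosome was kept for each side. Of these kept windows 9 had 15 or more genes on the same side, 6 below and 3 above; further windows as full on the same chromosomes were not counted. The fullest of them, from LYRM9 to NUFIP2 on chromosome 17, had 21 of 25 below with a median of only -1.03, and it overlapped the longest run of genes on the same side, 10 from TRAF4 to ABHD15. A window from MED16 to MBD3 on chromosome 19 had 19 below (median -1.05) and included TMEM259, and a window from EME2 to TEDC2 on chromosome 16 had 18 below (median -1.17). A window from PLD1 to SNHG33 on chromosome 3 had 18 above (median 1.03), of which 16 were above in the treated arrays too, and included ZMAT3. The chromosome 11 window from NUP98 to PPFIBP2, with 16 below, held RRM1, and the chromosome 6 window from RSPH3 to TBP, with 15 below, held the reference gene TBP. At the end of chromosome 19, 15 of 25 genes from ZNF17 to ZNF8 were above, ZSCAN18 among them. Some genes described with their lists also lay in runs of neighbours on the same side. PLK1 was in a run of 8 below on chromosome 16, from GGA2 to PRKCB. CD79B ended a run of 6 above on chromosome 17, and IRF7 was in a run of 5 below on chromosome 11.

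Several of the genes with the largest gap below had neighbours that were below by smaller amounts. Beside TPD52 on chromosome 8, ZBTB10 read 2.98 and 2.54 against 8.01 to 10.36, while MRPS28 (-1.17 ± 0.08) and PAG1 (-1.92 ± 0.09) were below with smaller differences. Near CPNE3, RMDN1 and WWP1 were below (-2.06 ± 0.07 and -1.55 ± 0.1). Around FAR1, BTBD10 (-1.82 ± 0.07) and COPB1 (-0.91 ± 0.05) were below, and RRAS2 was at the floor in SKNO1 and inside the range. Around HNRNPLL, CDC42EP3 (-4.43 ± 0.13) and SRSF7 (-0.23 ± 0.07) were below, and CYP1B1 was at the floor in SKNO1 and in the lowest of the other arrays. These neighbours were chosen after their values were seen.

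**Figure D5:**
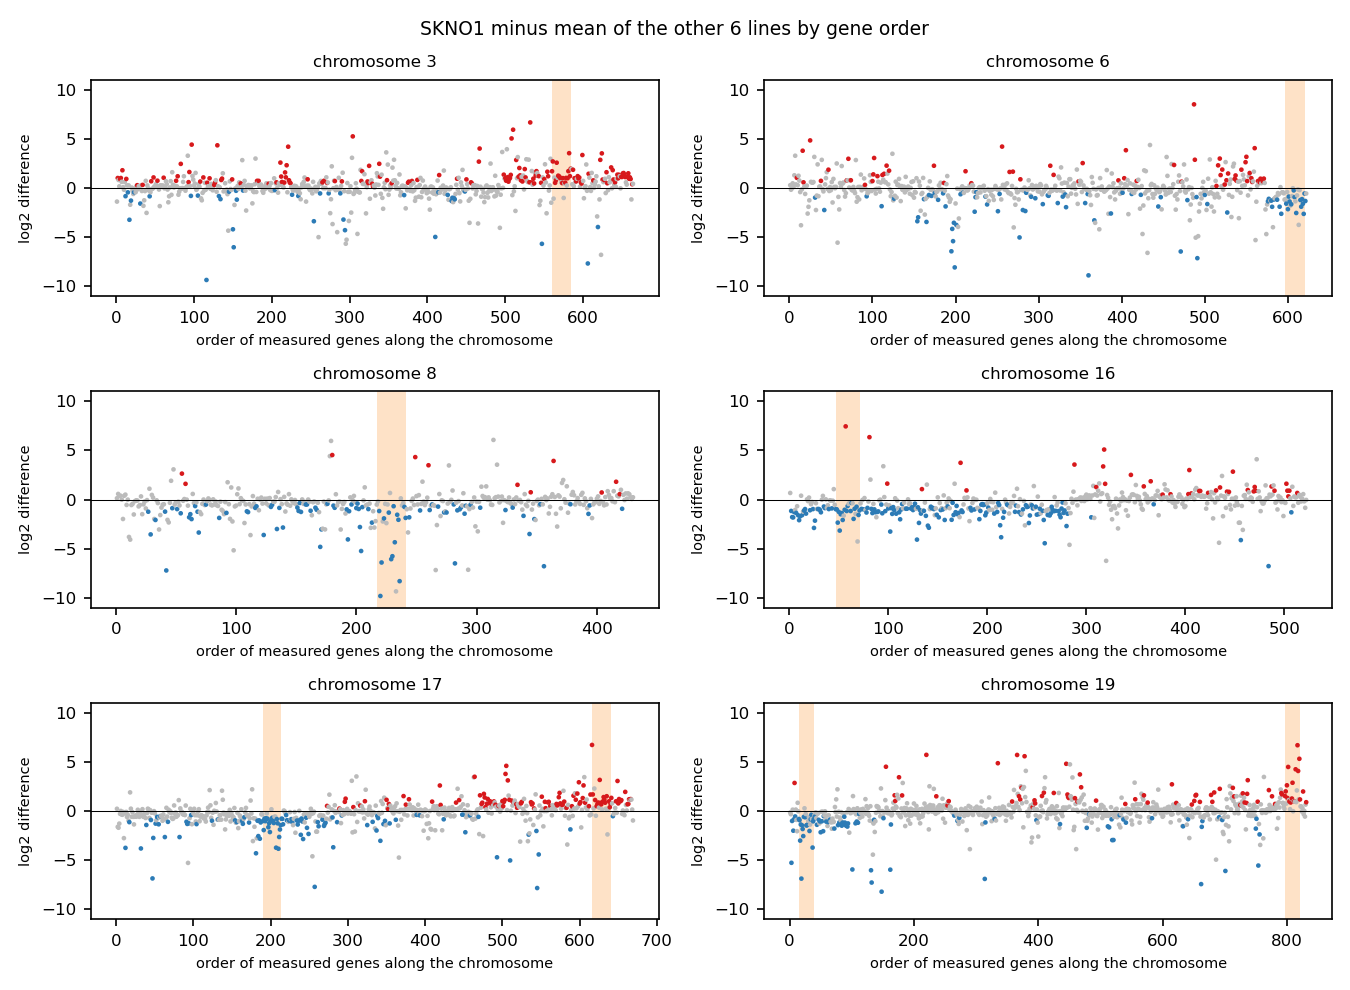
log2 difference of SKNO1 from the mean of the other 6 lines (y axis) for every measured gene of 6 chromosomes, by order along the chromosome (x axis). Red and blue points have both SKNO1 arrays above or below the other 12, grey points lie inside the range, and shaded bands mark a chromosome's fullest window of 25 genes on a side, where it holds 14 or more; the first part of chromosome 16 lies mostly under 0.

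The 14 arrays treated with GSK3484862 allowed the range rule to be repeated on other arrays of the same lines. It found 1438 genes above (12.3%) and 1283 below (11.0%). Of the 1457 genes above without treatment 1078 were above with it (74.0% of the first list and 75.0% of the second), and of the 1274 below 960 were below (75.4% and 74.8%). No gene crossed from above to below or from below to above. All 30 genes with the largest gaps lay on the same side in the treated arrays. The SKNO1 difference itself changed with treatment for 874 genes (7.49%) by the limma interaction of line and treatment. TAP2 was among these: it read 5.82 and 5.48 in treated SKNO1 arrays against 2.93 and 3.1 untreated, and the difference from the other lines moved from -6.44 to -3.64, while PSMB9 moved from -8.08 to -7.63 and did not pass (adjusted p = 0.157).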

How the data were processed

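Per the labels, Affymetrix U133 Plus 2.0 arrays were run on RNA of 7 AML lines, in duplicate with DMSO and with GSK3484862. The table the authors deposited holds log2 probe set values, 27306 by 28 arrays. Whether probe sets of the array had been left out of it, and by what rule, was not found. "Measured" therefore means present in this table with 1 gene symbol, and every share refers to those genes. How they were background-corrected, summarised and normalized was not found in the labels or the table; the submitters' processing notes name limma. The values entered every step without further scaling.

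Of the probe sets, 22580 had 1 gene symbol in the platform annotation, 1098 several and 3628 none listed. The first kind covered 11676 genes, and for 6051 a choice among probe sets was needed. Groups came from the labels. Differences were fitted with limma 3.58.1 (lmFit, eBayes; R 4.3.3) on the 14 DMSO arrays in 7 groups, with Benjamini-Hochberg adjustment over all genes, after a test on simulated data. Treatment interactions used all 28 arrays. Gene order and promoters came from RefSeq tables (GRCh38.p14). With 2 arrays a line, the number of arrays limits the precision.

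Genes were named as the 15 with the largest gap on each side of the range, up to 4 members of each gene list and a few genes of the fusion's biology. Other list members and neighbours are named where their list or region is described. Members, lists and tests were chosen with earlier results of these data known. Deviations of same-numbered replicates of different lines correlated little over all genes (r -0.16 to 0.24 over 21 pairs of lines, 2 over 0.1). A low correlation over all genes cannot show whether some genes shifted together. In the sample titles every first replicate has a lower serial number than every second replicate, and the meaning of that number is not given. The main fit does not pair arrays by replicate number, and the replicate block is the alternative that does. Alternatives were other normalizations, filters, probe set rules, sets of lines, left-out arrays, error models and thresholds.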

Additional observations from a re-analysis of the deposited data

Results flagged for a closer look

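For 21 of the 113 named genes the SKNO1 difference from the other lines changed between untreated and treated arrays. Over all 11676 genes it changed for 874 (7.49%). Both counts are by the limma interaction of line and treatment with adjustment over all genes. In 20 of these 21 genes the direction was the same in both sets, and in 16 the difference was smaller in size with treatment. Most named genes were chosen for large untreated differences, and the same untreated values enter the interaction. A kept direction and a smaller difference can therefore come from that choice alone, and neither is read as an effect of treatment. The exception in direction was CEBPE, which changed by -1.55, from 1.39 to -0.16. What moved was the SKNO1 arrays for some genes and the other lines for others; no explanation was tested.

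TAP2 changed by 2.79 (adjusted p = 9.01e-10) and CC2D2A by -2.15 (7.68 and 7.83 untreated, 6.34 and 5.24 treated in SKNO1). S100A9 changed by -2.29, with SKNO1 at 2.23 in both treated arrays and the lowest other array at 5.15. FCER1A changed by 1.97 and TPM1 by 1.01. HORMAD1 changed by -1.18: SKNO1 read 12.2 and 12.38 with treatment, and the highest other array went from 2.19 to 7.89. SPARC changed by -1.14, MAGEB2 by -1.05, MPO by -0.98, LOC101928047 by -0.85, PRAME by -0.8 and ETS1 by -0.75. CPXM1 changed by 0.69, CD79B by -0.66, CEBPA by 0.62, GAS2L3 by 0.57, MEIS1 by -0.56, ZMAT3 by -0.56, WDR12 by 0.34 and RRS1 by 0.25.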

How the results depend on the processing

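With lines as units, 29 genes were called higher and 36 lower. With a 2-fold limit 1512 and 1869 were, and with a filter on low genes 2834 were lower, from fewer genes tested. Against GDM1 and SKM1 only, 3069 genes lay above the range and 2756 below. Against the 4 KMT2A-rearranged lines only, 2242 lay above and 2026 below, since fewer arrays make the range. With a margin of 1 log2 unit 197 and 272 remained. Leaving out each array in turn gave 3639 to 4344 genes higher, 3612 to 4396 lower, 1469 to 1728 above and 1296 to 1595 below; leaving out each other line gave 1612 to 1934 above and 1423 to 1759 below. The replicate block gave 4198 higher, 4254 lower, 1468 above and 1261 below, and changed no call of a named gene. Quantile normalization moved the median difference from -0.01 to 0.069, with 4698 higher and 3861 lower. Over 3680 repeats for the 113 named genes, 3520 kept direction and side of the threshold, 81 fell under it, 5 passed it, 71 values without a test moved by more than the spread between replicates, and 3 reversed: SPARC against GDM1 and SKM1 only (-2.66) and without probe sets that match several transcripts (-1.82), and RUNX2 with all probe sets averaged (-0.55). The causes were not tested. Of 111 named genes called, 33 stayed called with lines as units. RUNX1T1 and its alternatives were not run, since that gene is not analysed here. Genes at the floor have no lower reading, which limits every difference that reaches it.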
